A study of Mus musculus with 2 samples.

Results

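The genes described here were the nuclear-encoded genes of the mitochondrial respiratory chain and ATP synthase in single cells of the mouse lung. A gene belonged to the set when its symbol started with 1 of 7 prefixes (Ndufa, Ndufb, Ndufc, Ndufs, Ndufv, Uqcr or Atp5) and it had a unique molecular identifier (UMI, 1 counted transcript molecule) in at least 5 cell barcodes. This gave 70 of the 15534 genes that met the same minimum. The rule used symbols and detection only, but it was chosen with earlier results of these data known. Dendritic cells (DC) and alveolar macrophages (AM) had been sorted by flow cytometry from lungs of female C57BL/6J mice under 3 protocols, and 1 of the series' descriptions also lists IM, read here as interstitial macrophages. The control pool came from mice given Alum intraperitoneally without ovalbumin (OVA) and saline intranasally. The asthma pool came from mice sensitised with OVA in Alum and then challenged repeatedly with intranasal OVA. The tolerance pool came from mice that inhaled OVA before the same asthma protocol. Lungs of several mice were pooled per protocol, the 3 pools were tagged with hashtag antibodies and mixed in equal numbers, and the mixture was run on 2 lanes of the 10x 3′ v3 platform. Each protocol was thus 1 pool of mice measured in 2 technical lanes, so a difference between protocols and a difference between pools of mice cannot be told apart, and no test between protocols was made.

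The respiratory chain passes electrons from NADH and succinate to oxygen across complexes I to IV of the inner mitochondrial membrane and pumps protons, and complex V, the ATP synthase, uses the proton gradient to make ATP. The subunits are encoded in 2 genomes, because the mitochondrial DNA carries a small set of core subunits and nuclear genes supply all others. In immune cells the balance between oxidative phosphorylation and glycolysis is known to shift with activation, and DC matured through Toll-like receptors are a textbook case of a glycolytic shift. The 70 genes comprised 36 subunits of complex I (7 of the catalytic core and 29 accessory), 8 Ndufaf assembly factors that build complex I without staying in it, 8 genes of complex III and 15 of complex V (5 of the catalytic F1 head and 10 of the membrane-embedded Fo part and its stalks). The other genes were Ndufa4, which is now counted as a subunit of complex IV, its paralogue Ndufa4l2, which had a UMI in only 5 barcodes, and Atp5s, which is not a core subunit.

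Promoter stretches are given for 4 genes named in the results below. They are given because they show short motifs of factors that are known to act at nuclear genes of mitochondrial proteins. Each stretch holds the 200 bases upstream of the annotated start, 5′ to 3′ on the strand of the gene, from RefSeq on build GRCm38.p6, with the motif found by the search in capitals. Ndufaf4 lies on the plus strand with its stretch at chr4:24897883-24898082 and holds GCGCATGC, the core letters of the nuclear respiratory factor Nrf1, read on both strands as overlapping matches. Atp5g3 (minus strand, chr2:73911327-73911526) holds TGACCTT, the reverse of the estrogen-related receptor half-site AAGGTCA. Uqcr11 (minus strand, chr10:80406822-80407021) holds the ETS-family letters CCGGAAG, and Uqcrh (minus strand, chr4:116075071-116075270) holds their reverse, CTTCCGG.
Ndufaf4: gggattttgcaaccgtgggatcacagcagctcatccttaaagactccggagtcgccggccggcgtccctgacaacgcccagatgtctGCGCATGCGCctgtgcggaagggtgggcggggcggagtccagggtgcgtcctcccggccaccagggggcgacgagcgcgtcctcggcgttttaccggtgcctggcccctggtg
Atp5g3: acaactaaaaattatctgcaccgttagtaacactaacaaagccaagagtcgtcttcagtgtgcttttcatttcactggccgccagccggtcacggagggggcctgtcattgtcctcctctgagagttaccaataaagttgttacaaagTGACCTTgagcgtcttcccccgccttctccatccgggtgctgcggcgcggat
Uqcr11: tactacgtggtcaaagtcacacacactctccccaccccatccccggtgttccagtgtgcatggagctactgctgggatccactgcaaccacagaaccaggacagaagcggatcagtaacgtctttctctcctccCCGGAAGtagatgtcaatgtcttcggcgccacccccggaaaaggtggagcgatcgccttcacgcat
Uqcrh: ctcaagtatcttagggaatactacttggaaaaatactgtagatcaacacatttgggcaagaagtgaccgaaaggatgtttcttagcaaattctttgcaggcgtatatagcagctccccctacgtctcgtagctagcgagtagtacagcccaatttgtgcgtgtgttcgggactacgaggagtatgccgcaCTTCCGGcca

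Promoters of 58 of the 70 genes were found in RefSeq, as 63 windows of 250 upstream bases, and both strands were searched. The Nrf1 letters occurred in 11.1% of these windows and in 2.26% of all 32851 windows of the same length. The ETS letters occurred in 17.5% against 6.91%, the estrogen-related receptor letters in 7.94% against 4.08%, and the YY1 letters AAGATGG in 1.59% against 4.49%. These were 7 windows of members with the Nrf1 letters, 11 with ETS, 5 with the estrogen-related receptor letters and 1 with YY1. Any of the 4 motifs occurred in 21 of the 63 windows (33.3%) and in 16.6% of all windows, so most windows of members held none. A match is a run of letters in a window and is given as a description.

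Of 10901 barcodes, 9856 passed the filters on quality and doublets, and 7940 were placed in a class by panels of 8 marker genes that held no respiratory gene, while 1916 (19.4%) stayed without a class. The class names stand for cells that carry these markers ("AM-like" and so on) and are used below without the suffix. AM numbered 4411 cells, IM 677, cDC1 (with Xcr1 and Clec9a among their markers) 291, cDC2 (Cd209a, Mgl2) 829, Ccr7-bearing mature DC 281 and nonclassical monocytes 336. Not every panel gene marked its class. Cd33 of the cDC2 panel had a UMI in 27.1% of cDC2 and 31.8% of cells of other classes. Apoc2 of the nonclassical monocyte panel had a UMI in 0% of either. The gate also found 79 classical monocytes, 567 B cells, 172 T cells, 24 NK cells, 76 neutrophils and 197 endothelial cells, although DC and macrophages had been sorted. No barcode occurred in both lanes, and each lane of a pool held between 7897139 and 11459855 UMIs. The classes were uneven across pools: IM numbered 44 cells in the control pool, 243 in the asthma pool and 390 in the tolerance pool, and mature DC 28, 186 and 67. Marker genes of AM summed to between 41.7 and 45.8 UMIs per 10000 in AM and to at most 2.53 in IM, cDC1, cDC2 and mature DC. In endothelial cells they summed to 17.1 in control, 8.93 in asthma and 15.7 in tolerance.

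The share of a cell's transcripts that came from the 70 genes differed between classes, with AM and cDC2 at the top and neutrophils at the bottom. The level is given as UMIs of the 70 genes per 10000 UMIs of the class, as mean ± SD over the 3 pools. AM had 183 ± 23.5 (SD, n = 3 pools), cDC2 178 ± 33.6, classical monocytes 175 ± 12.5, IM 164 ± 28.1 and cDC1 152 ± 25.8. These 5 classes followed each other within their spread over pools, which includes how far levels moved between the pools. Within each pool cDC1 had the lowest level of the 5. It was 123 in control, 164 in asthma and 171 in tolerance, against 132, 185 and 174 in IM. NK cells had 156 ± 1.09, nonclassical monocytes 131 ± 7.18, T cells 131 ± 13.2, endothelial cells 120 ± 0.834 and B cells 117 ± 7.37. Mature DC had 104 ± 17.2 and neutrophils 61.5 ± 3.09. Within each pool mature DC lay below cDC1 and cDC2: the control pool gave 83.7 in mature DC against 123 and 139, the asthma pool 113 against 164 and 201, and the tolerance pool 114 against 171 and 194. The denominator bears on B and T cells, in which ribosomal protein genes took 24.2% to 30.0% of UMIs, against 10.7% to 16.6% in macrophages and DC. With ribosomal and mitochondrially encoded genes left out of the totals, the level was 168 in B cells, 194 in T cells, 214 in AM, 219 in cDC2 and 124 in mature DC. With these totals T cells lay just below IM and above cDC1, and B cells lay below both.

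**Figure D1:**
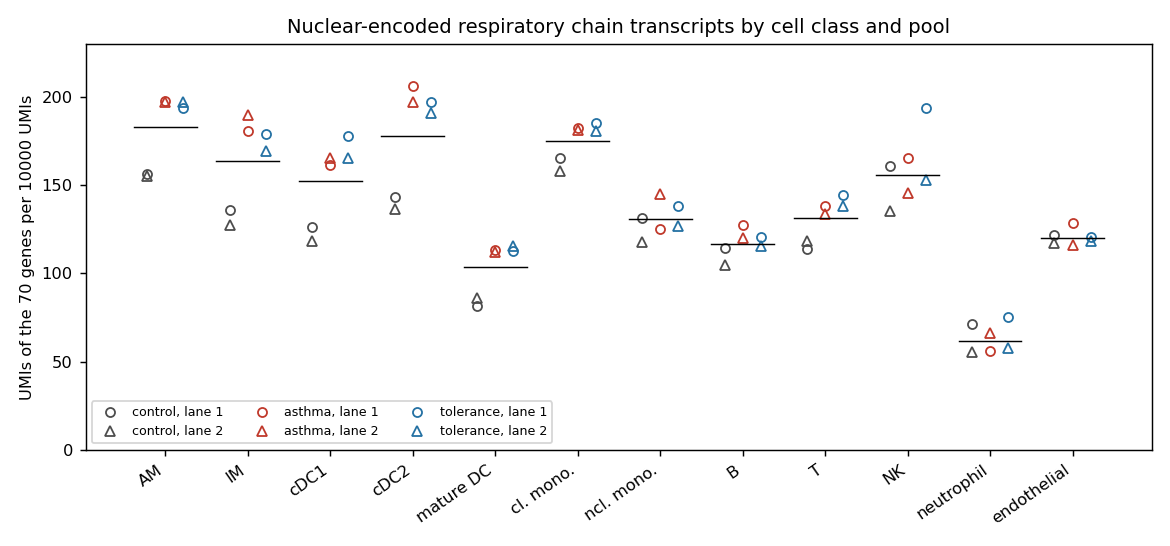
UMIs of the 70 genes per 10000 UMIs of a class (vertical axis) for each of the 12 marker-gated classes (horizontal axis), with a point for each lane of the control, asthma and tolerance pools and a line at the mean of the 3 pools. In AM, IM, cDC1, cDC2 and mature DC both lanes of the asthma and tolerance pools lie above both control lanes, for example 197 to 206 (asthma) and 191 to 197 (tolerance) against 137 to 143 in cDC2.

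In macrophages and DC the respiratory genes took a larger share of transcripts in the asthma and tolerance pools than in the control pool. In cDC2 the control lanes had 143 and 137 UMIs per 10000, the asthma lanes 206 and 197 and the tolerance lanes 197 and 191, which gave ratios to control of 1.44 and 1.39. In IM the lanes had 136 and 128 (control), 181 and 190 (asthma) and 179 and 169 (tolerance), or ratios of 1.40 and 1.32. In cDC1 they had 126 and 118, 161 and 166, and 178 and 165, or ratios of 1.33 and 1.39. The lanes of a pool lay closer to each other than the control lanes lay to the treated lanes in all 3 of these classes. Mature DC had 81.4 and 85.8 in control, 113 and 112 in asthma and 113 and 115 in tolerance, with ratios of 1.35 and 1.36. AM had 156 and 155, 198 and 197, and 193 and 197, with ratios of 1.27 and 1.25. The asthma and tolerance pools share the control pool, so the ratios of one are not independent of those of the other.

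The ratios were closer to 1 in monocytes, lymphocytes and endothelial cells. The asthma and tolerance ratios were 1.17 and 1.21 in T cells, 1.13 and 1.14 in classical monocytes, 1.13 and 1.08 in B cells and 1.12 and 1.07 in nonclassical monocytes. They were 1.01 and 1.00 in endothelial cells and 1.01 and 1.01 in NK cells, whose 24 cells gave lanes from 135 to 194. The 4 treated lanes lay above both control lanes in 8 of the 12 classes, the exceptions being nonclassical monocytes, NK cells, neutrophils and endothelial cells. In nonclassical monocytes the control lanes had 131 and 118 against 125 and 145 in asthma and 138 and 127 in tolerance, so these groups overlapped.

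The subunits of complexes I, III and V had ratios above 1 of similar size, and those of the mitochondrial genome had ratios on both sides of 1. Over AM, IM, cDC1, cDC2 and mature DC, the asthma ratio ran from 1.23 to 1.45 for complex I, from 1.21 to 1.5 for complex III and from 1.31 to 1.49 for complex V. The tolerance ratio ran from 1.22 to 1.38, from 1.23 to 1.5 and from 1.32 to 1.42. The nuclear subunits of complex IV, the complex that passes electrons to oxygen, are not among the 70 genes apart from Ndufa4. They ran from 1.26 to 1.44 (asthma) and from 1.24 to 1.34 (tolerance). The 13 mitochondrially encoded genes ran from 0.873 to 1.03 and from 0.897 to 1.13. In cDC2 the mitochondrially encoded genes summed to 347 UMIs per 10000 in control, 303 in asthma and 325 in tolerance, while complex V summed to 60.6, 87.2 and 84.9. Both treated pools were above control in both lanes for the mitochondrially encoded genes in 0 of 12 classes.

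**Figure D2:**
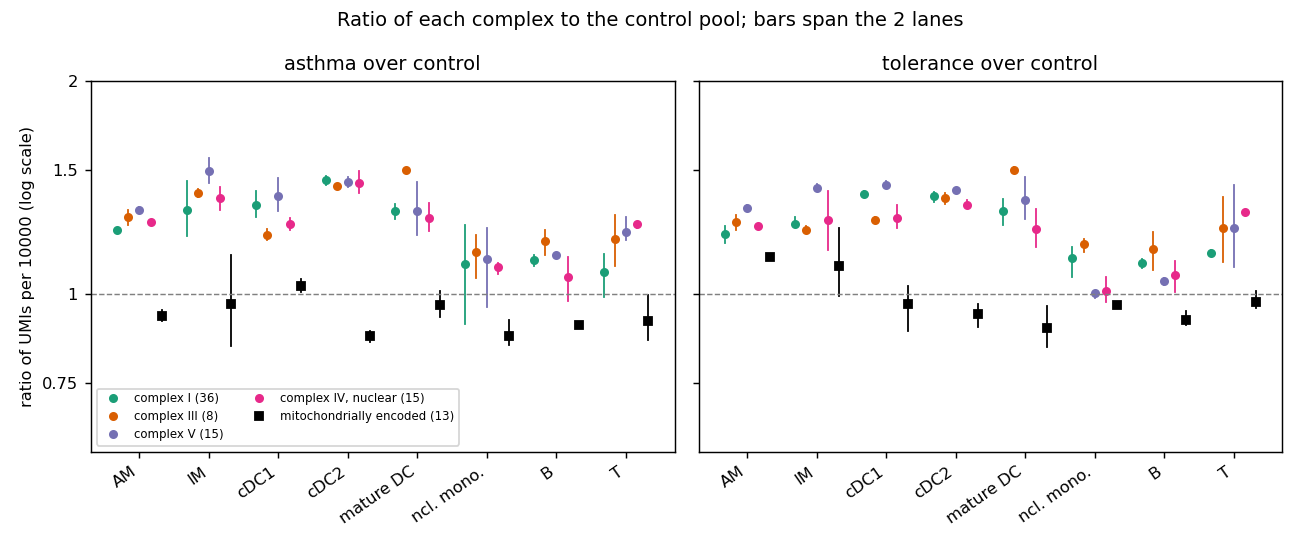
Ratio of the treated pool to the control pool (vertical axis, log scale) of summed UMIs per 10000 for each complex or gene list by class (horizontal axis), with asthma on the left and tolerance on the right, points for lanes added and bars spanning the 2 lanes. In AM, IM, cDC1, cDC2 and mature DC the points of complexes I, III, IV (nuclear) and V lie between 1.21 and 1.5, and those of the mitochondrially encoded genes between 0.873 and 1.13.

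Other lists of mitochondrial genes were read in the same way. The citric acid cycle enzymes, which feed the chain with NADH, had ratios from 1.21 to 2.07 (asthma) and from 1.19 to 1.89 (tolerance), and were highest in cDC2, with 10.3 UMIs per 10000 in control, 21.4 in asthma and 19.5 in tolerance. Complex II, the succinate dehydrogenase, ran from 1.08 to 1.38 and from 0.931 to 1.40. The carriers and channels that move ATP, ADP and metabolites ran from 0.965 to 1.29 and from 1.02 to 1.32. The regulators of mitochondrial biogenesis ran from 0.922 to 1.11 and from 0.788 to 1.05.

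Depth per cell moved with the protocol in some classes. The median cell had 5531 UMIs in control, 7201 in asthma and 8028 in tolerance in cDC2, and 3942, 4679 and 7185 in IM. In AM the median was 5062 in control, 4610.5 in asthma and 5772 in tolerance. Among cells with 2000 to 10000 UMIs only, the 10 ratios of AM, IM, cDC1, cDC2 and mature DC ran from 1.25 to 1.44. Marker panels moved with the protocol too, here in the order control, asthma, tolerance and in UMIs per 10000. In IM the AM panel summed to 0.191, 2.53 and 2.03 and the classical monocyte panel to 14.0, 25.5 and 22.1, and in cDC2 the AM panel summed to 0.496, 2.19 and 1.79. In cDC1 the AM panel summed to 2.31, 2.52 and 2.43 and the nonclassical monocyte panel to 1.64, 0.677 and 0.404. In mature DC the AM panel summed to 0.477, 0.473 and 0.454, the nonclassical monocyte panel to 8.67, 2.46 and 2.60, and their own panel to 167, 106 and 98.9. The part of these panels in the ratios was not tested.

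Single members were compared between pools by size alone. A member counted where it had at least 100 UMIs over the compared pools and was at least 1.5-fold higher, or lower, in both lanes, in classes with at least 20 cells per pool and lane (AM, cDC1, cDC2, nonclassical monocytes and B cells). In cDC2, 17 of 64 members were past this size in the asthma pool and 14 of 60 in the tolerance pool, all of them higher, where 12.3% and 9.97% of all genes were higher by that much. Over all genes, 295 of 5013 were lower by that much in asthma and 195 of 3702 in tolerance. The median ratio of the members was 1.42 in asthma and 1.39 in tolerance, against 1.11 and 1.11 over all genes. All 64 members were above 1 in both lanes in asthma, as were 47.4% of all genes, and 57 of 60 were in tolerance, as were 47.5% of all genes.

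Atp5g3 and Ndufa12 had the largest ratios. Atp5g3, 1 of 3 genes for the c subunit in the membrane ring of ATP synthase, had 1.20 UMIs per 10000 in control cDC2 (87 UMIs), 3.18 in asthma (1123 UMIs) and 3.03 in tolerance (618 UMIs), ratios of 2.65 (4.07 and 2.07 in the lanes) and 2.53 (3.58 and 2.10). Atp5g1, which encodes the same c subunit, had 2.70, 5.26 and 4.99, or ratios of 1.95 and 1.85. Atp5g2, the other gene for it, had 4.79, 5.20 and 5.43 (348, 1839 and 1108 UMIs), or ratios of 1.09 and 1.13, and was not past the size. The c-subunit genes thus did not share 1 ratio, and reads that matched more than 1 gene were not counted while the Atp5g genes and their pseudogene copies share sequence. Atp5b, the catalytic beta subunit of the F1 head, had 4.31, 7.25 and 7.49, or ratios of 1.68 and 1.74. In complex I, Ndufa12 had 0.882, 1.97 and 1.72 (ratios 2.23 and 1.96), and Ndufab1, which is also the mitochondrial acyl carrier protein, had a ratio of 1.78 in asthma. Ndufs3, a core subunit, had a ratio of 1.81 in tolerance. In complex III, Uqcrb had 2.80, 5.11 and 4.54 (1.83 and 1.62), and Uqcr10 had ratios of 1.81 and 1.78. Ndufa4 had 1.94 in control, 3.25 in asthma and 3.27 in tolerance, or ratios of 1.67 and 1.68.

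**Figure D3:**
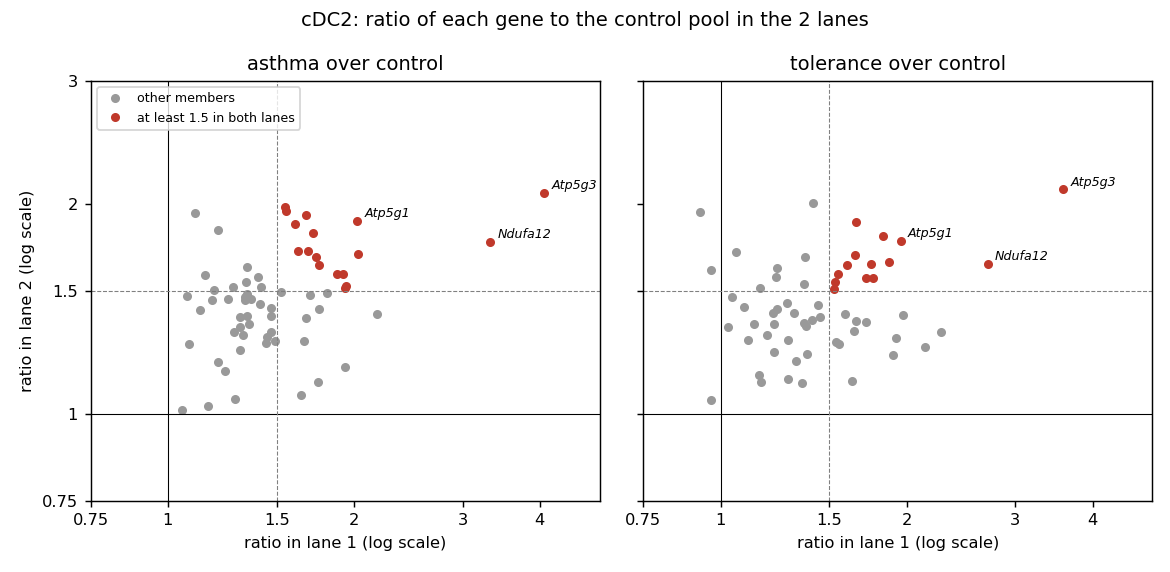
Ratio of each member to the control pool in cDC2 in lane 1 (horizontal axis) and lane 2 (vertical axis), both on log scales, for asthma (left) and tolerance (right), with 1 point per member and dashed lines at 1.5. All 64 members lie above 1 in both lanes in asthma, and Atp5g3 lies farthest out at 4.07 and 2.07 in asthma and 3.58 and 2.10 in tolerance.

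In cDC1 the same size was passed by 6 of 59 members in asthma (6.88% of all genes were higher) and 11 of 59 in tolerance (8.94%), all higher. Over all genes, 61 of 2254 were lower by that much in asthma and 104 of 1891 in tolerance. Ndufb6, an accessory subunit of complex I, had 0.642 UMIs per 10000 in control (34 UMIs), 1.19 in asthma and 1.48 in tolerance, ratios of 1.84 and 2.30. Atp5b had 4.12, 6.88 and 7.79, or ratios of 1.67 and 1.89. Uqcrq, a small subunit of complex III, had 2.40, 4.34 and 4.11, or ratios of 1.81 and 1.71. The beta subunit of ATP synthase and the c subunit Atp5g1 (1.62 and 1.71) were past the size in both cDC1 and cDC2 in both treated pools. The median ratio of the members in cDC1 was 1.32 and 1.41, against 1.08 and 1.11 over all genes.

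In AM the differences were smaller but rested on many more UMIs. Of 68 members 4 were higher and 1 lower in asthma (4.42% of all genes were higher), and 4 were higher and 0 lower in tolerance (4.23%). Over all genes, 398 of 9014 were higher and 589 lower in asthma, and 370 of 8747 higher and 718 lower in tolerance. The median ratio of the members was 1.25 in both treated pools while that of all genes was 0.933 and 0.914. Uqcrq had 3.61 in control, 5.70 in asthma and 5.54 in tolerance, or ratios of 1.58 and 1.53. Atp5k, a small subunit of the membrane part of ATP synthase, had ratios of 1.57 and 1.56, and the complex I subunit Ndufc1 of 1.57 and 1.59. Atp5o had a ratio of 1.64 in asthma, and its symbol has a further gene entry without UMIs. Ndufaf7, an assembly factor that methylates a core subunit, went the other way in asthma with 124 UMIs in control and 36 in asthma, a ratio of 0.495.

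B cells and nonclassical monocytes had few members past the size. In B cells Ndufc1 was 2.01-fold higher in asthma, the single one of 46 members (0.986% of all genes), and 0 of 32 were in tolerance (1.39%). In nonclassical monocytes 0 of 39 were in asthma (0.907%) and 1 of 25 in tolerance (1.31%), which was Uqcr11 with a ratio of 1.57. The median ratio of the members in B cells was 1.18 and 1.07, against 1.02 and 1.01 over all genes. In nonclassical monocytes it was 1.10 and 1.05, against 0.998 and 0.994.

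Between classes, 65 of the 70 genes had enough counts for a test, which asked for differences between cell classes that recurred over the 3 pools. UMIs were summed per class and pool, and classes were compared with the edgeR quasi-likelihood test with pool as a block and Benjamini-Hochberg adjustment over all 7735 genes tested, at an adjusted p of 0.05. Ndufaf1, Ndufaf5, Ndufaf6, Atp5s and Ndufa4l2 were too low. Values in brackets after a gene name are log2 fold changes in these comparisons, with their SE where an error is given. The 3 pools had received different protocols, so the test measures what the classes share across protocols, and its error includes how far a class difference changed with the protocol.

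Mature DC had lower levels of respiratory genes than both cDC subsets. Against cDC2, 44 of 65 members were lower and 0 higher, where 21.8% of all genes were lower and 21.7% higher, and 62 members had a fold change below zero. Against cDC1, 29 were lower and 0 higher, where 19.2% of all genes were lower and 20.9% higher. The median log2 fold change of the members was −0.64 against cDC2 and −0.48 against cDC1, and that of all genes −0.01 and 0.00. The lower members were spread over the chain: against cDC2 they were 27 of 36 complex I subunits, with 6 of the 7 core subunits, 4 of 5 assembly factors tested, 4 of 8 complex III genes and 8 of 15 complex V genes. Mature DC had fewer cells than either cDC subset, with 28 in the control pool. Without the control pool 35 and 49 members were lower than in cDC1 and cDC2, without the asthma pool 12 and 20, and without the tolerance pool 12 and 27.

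Assembly factors and small accessory subunits had the largest differences. Ndufaf4, an assembly factor, had 1, 7 and 0 UMIs in the control, asthma and tolerance pools of mature DC, against 7, 21 and 34 in cDC1 and 19, 120 and 70 in cDC2. Its log2 fold change was −2.20 ± 0.55 (SE) against cDC1 (edgeR quasi-likelihood test, adjusted p = 0.0014) and −2.45 ± 0.50 against cDC2 (adjusted p = 0.000122). Mature DC also held fewer UMIs of all genes than either cDC subset in every pool. In control the totals were 125666 UMIs in mature DC, 529213 in cDC1 and 725918 in cDC2. The raw counts of Ndufaf4 therefore do not compare levels by themselves. Ndufa5, an accessory subunit of the arm of complex I that reaches into the matrix, lies on chromosome 6 (24518666 to 24528013, minus strand, GRCm38). It had 0.239, 0.274 and 0.143 UMIs per 10000 in mature DC, 0.699, 0.959 and 1.22 in cDC1 and 0.978, 1.42 and 1.31 in cDC2. These values of mature DC and of either subset did not overlap, but those of mature DC rested on 3, 29 and 6 UMIs. Its log2 fold change was −1.90 ± 0.29 against cDC1 (edgeR, adjusted p = 1.21e-06) and −2.21 ± 0.27 against cDC2 (adjusted p = 2.2e-08). Ndufaf7 (−1.88 and −2.15) and Ndufaf3 (−1.23 and −1.75) were lower as well, from 0, 6 and 1 and from 1, 14 and 2 UMIs in mature DC.

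Ndufa4 had 0.557, 1.01 and 0.931 UMIs per 10000 in mature DC, 2.00, 2.95 and 3.30 in cDC1 and 1.94, 3.25 and 3.27 in cDC2, again without overlap. The log2 fold change was −1.43 ± 0.24 against cDC1 (edgeR, adjusted p = 7.31e-06) and −1.41 ± 0.24 against cDC2 (adjusted p = 6.5e-06). The c-subunit gene Atp5g1 had 1.19, 1.81 and 1.91 in mature DC and fell below cDC2 with a log2 fold change of −1.11 ± 0.18 (edgeR, adjusted p = 2.94e-06). Uqcrc1, a core subunit of complex III, was lower than in cDC2, with a log2 fold change of −1.04 ± 0.20 (edgeR, adjusted p = 4.66e-05), and the core complex I subunit Ndufs1, which carries iron-sulfur clusters, with −1.17 ± 0.31 (adjusted p = 0.00223).

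Several members of the same complexes did not pass in mature DC. Uqcrh, the acidic hinge subunit of complex III, had 2.86, 5.73 and 6.21 in mature DC, 4.97, 4.34 and 4.67 in cDC1 and 5.21, 5.36 and 5.27 in cDC2, with log2 fold changes of 0.31 and 0.19. The iron-sulfur subunit Uqcrfs1 had 0.16 and 0.38, Atp5b −0.34 and −0.30, and Atp5g2 −0.18 and −0.19. Under library totals without the TMM scaling of edgeR, which corrects for differences in composition, all genes had medians of −0.18 (against cDC1) and −0.26 (against cDC2) and the members −0.68 and −0.92, with 44 and 59 members lower. The split of calls over all genes then moved from 52.1% to 39.2% higher against cDC1 and from 49.8% to 34.5% against cDC2. With ribosomal and mitochondrial genes left out of the totals, the splits were 37.2% and 32.4%, the medians of all genes −0.22 and −0.30, and the members lower 46 and 60.

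**Figure D4:**
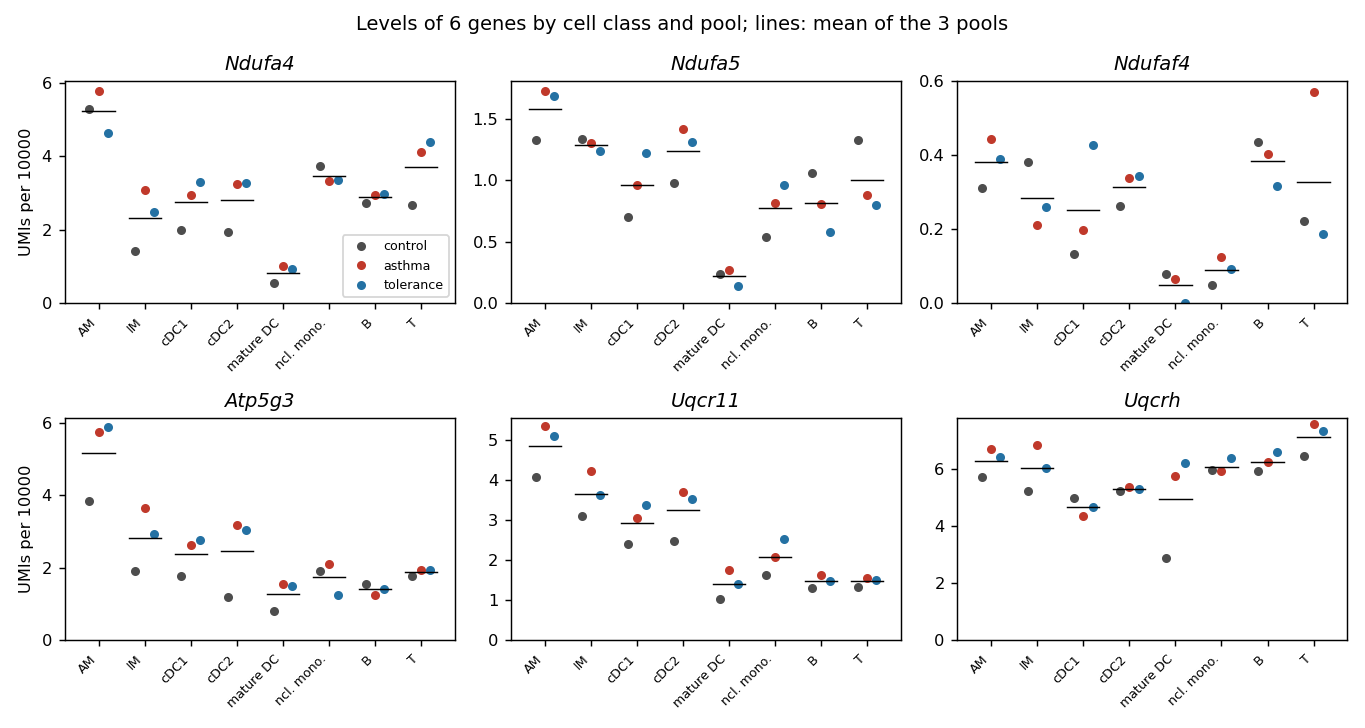
UMIs per 10000 (vertical axis) of Ndufa4, Ndufa5, Ndufaf4, Atp5g3, Uqcr11 and Uqcrh by class (horizontal axis), with a point for each of the control, asthma and tolerance pools and a line at their mean. Ndufa5 lies between 0.143 and 0.274 in mature DC and at or above 0.699 in cDC1 and cDC2, while Uqcrh lies between 2.86 and 6.21 in mature DC and between 4.34 and 5.36 in cDC1 and cDC2.

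The genes around the chain were also read in mature DC. Over all genes 21.8% were lower and 21.7% higher against cDC2, and 19.2% lower and 20.9% higher against cDC1. Of 12 citric acid cycle genes 6 were lower than in cDC2 and 4 lower than in cDC1, with 0 higher. Fh1, the fumarase, was lower, with log2 fold changes of −3.16 ± 0.31 against cDC2 and −1.55 ± 0.35 against cDC1, and Idh3a, a subunit of the NAD-dependent isocitrate dehydrogenase, had −2.71 ± 0.37 and −2.66 ± 0.39. Of 9 carriers 2 were lower against cDC2, near the share of all genes, and 4 against cDC1. Among them were Slc25a5, an ADP/ATP carrier (−1.05 and −1.12), and cytochrome c, Cycs (−0.95 and −1.31). Of 12 nuclear complex IV genes 4 were lower and 1 higher against cDC2, with Cox6b2 at −2.63 and Cox7b at −0.74 among the lower and Cox7a2l, an assembly factor of supercomplexes, higher by 0.67 on the log2 scale. Against cDC1 2 were lower, near the share of all genes, and 1 higher. Of 4 complex II genes 2 and 1 were lower, with Sdhc at −1.07 against cDC2. Of 8 biogenesis regulators 1 was higher (Yy1, 0.47) and 1 lower (Tfb2m, −1.32) against cDC2, and 0 against cDC1. The mitochondrially encoded genes did not follow: 0 of 13 were lower, and mt-Co1 was higher by 0.52 on the log2 scale against cDC2 and by 0.50 against cDC1, with mt-Nd4 higher by 0.43 on the log2 scale against cDC1. Those higher calls depended on the scaling, since without TMM mt-Co1 no longer passed against cDC2 and 1 of 13 genes passed against cDC1, and with totals without ribosomal and mitochondrial genes 0 of 13 passed in either comparison.

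Nonclassical monocytes, which patrol the vessel wall, had lower levels than IM. Of 65 members 28 were lower and 1 higher (15.6% and 15.0% of all genes), with a median log2 fold change of −0.41 against −0.06 over all genes. They were 15 of 36 complex I subunits, 4 of 8 complex III genes and 7 of 15 complex V genes. Of the 7 core subunits of complex I 0 passed, while all 7 had a fold change below zero, with a median of −0.27. Ndufa12 had 0.491, 0.756 and 0.527 UMIs per 10000 in nonclassical monocytes and 1.86, 1.78 and 1.43 in IM, without overlap, and a log2 fold change of −1.46 ± 0.24 (edgeR quasi-likelihood test, adjusted p = 1.03e-05). Atp5g1 had 1.57, 1.89 and 1.70 against 2.72, 3.98 and 3.60, also without overlap, with −1.04 ± 0.18 (edgeR, adjusted p = 2.49e-05). The assembly factors went in both directions: Ndufaf2 was lower with a log2 fold change of −1.80 ± 0.47, with 0, 7 and 2 UMIs, and Ndufaf4 with −1.36 ± 0.51, while Ndufaf7 was higher by 1.51 ± 0.38 on the log2 scale (edgeR, adjusted p = 0.002) from 6, 24 and 9 UMIs. Further lower members were Ndufc1 (−1.14), Ndufa10 (−1.03), Atp5g2 (−0.76) and Atp5b (−0.64). Without the control pool 36 members were lower, and without the asthma or the tolerance pool 8. The median nonclassical monocyte had 2087 to 2342.5 UMIs in the pools and the median IM 3942 to 7185, and among cells with 2000 to 10000 UMIs only, 31 members were lower and 1 higher, with a median of −0.45.

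In this comparison the mitochondrially encoded genes went the same way as the nuclear ones. Of 13 genes 11 were lower and 0 higher (15.6% and 15.0% of all genes), with a median of −0.58, mt-Atp8 at −0.94 ± 0.34 and mt-Co1 at −0.81 ± 0.16. Complex II had 4 of 4 genes lower (Sdhd −1.14, Sdhb −0.88), the nuclear complex IV genes 7 of 12 (Cox8a −0.72), the carriers 5 of 9 (Atpif1, the inhibitor of ATP synthase, −2.04, and Slc25a4 −1.73) and the citric acid cycle 1 of 12. Of the 8 regulators 2 were higher (Pparg 2.95, Nrf1 0.84) and 1 lower (Ppargc1b −4.41).

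With all genes in the totals, B and T cells had lower nuclear and higher mitochondrially encoded levels than the phagocytes. The mean of B and T cells was set against the mean of AM, IM, cDC1 and cDC2, and 41 of 65 members were lower and 1 higher (26.9% and 21.7% of all genes), with a median of −0.42 against −0.11 over all genes. The lower members included 13 of 15 complex V genes, 22 of 36 complex I subunits with 2 of 7 in the core, and 5 of 8 complex III genes. Without the asthma pool 24 members were lower, and without the tolerance pool 17.

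Small subunits of complex III were among the members that lay farthest apart. Uqcr11 had 1.31, 1.64 and 1.48 UMIs per 10000 in B cells and 1.33, 1.56 and 1.51 in T cells, while its lowest value over the pools of AM, IM, cDC1 and cDC2 was 2.40. Its log2 fold change was −1.27 ± 0.11 (edgeR quasi-likelihood test, adjusted p = 1.55e-11). Uqcrb had 1.96, 2.30 and 2.21 in B cells and 1.22, 2.50 and 2.12 in T cells and was lower, with a log2 fold change of −1.04 ± 0.11 (edgeR, adjusted p = 3.48e-10), and Uqcrq was lower, with a log2 fold change of −1.03 ± 0.14 (adjusted p = 1.46e-07). Uqcrh, of the same complex, was the 1 member that was higher, with 5.91, 6.23 and 6.56 in B cells, 6.44, 7.54 and 7.31 in T cells and a log2 fold change of 0.29 ± 0.12 (edgeR, adjusted p = 0.0409). Outside complex III, Ndufaf2 (−1.40), Ndufb8 (−0.92), Ndufb6 (−0.90), Atp5g3 (−0.89) and Ndufab1 (−0.85) were lower. Subunits of 1 complex thus lay on both sides of zero in lymphocytes.

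The call for lymphocytes depended on what the totals held. With ribosomal and mitochondrial genes left out of the totals, 16 members were lower and 2 higher, the median of all genes moved to 0.13 and that of the members to −0.17, and the share of all calls that were higher moved from 44.6% to 61.0%. Without TMM 42 members were lower and 42.8% of calls were higher. Of the mitochondrially encoded genes 12 of 13 were higher with a median of 0.62, led by mt-Atp6 (0.92 ± 0.10) and mt-Nd2 (0.87 ± 0.11), 11 without TMM and 13 with the reduced totals. Cells with over 20% mitochondrial UMIs had been removed in every class. Over all genes 26.9% were lower and 21.7% higher in lymphocytes, with the main scaling. Complex II had 4 of 4 genes lower (Sdhc −1.08, Sdhd −1.04), the nuclear complex IV genes 11 of 12 lower with Cox6b2 at −2.81 and Cox5a at −0.96 and Cox7a2l higher by 0.58 on the log2 scale, the carriers 7 of 9 lower (Atpif1 −1.79, Vdac1 −1.13) and the citric acid cycle 4 of 12 lower. Of the 8 regulators 4 were higher, led by Tfam, which packages mitochondrial DNA (1.32 ± 0.27), and Nrf1 (1.02 ± 0.22), and Pparg was lower (−2.13).

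The macrophage types differed in a few members. AM, which live in the air space, had 3 members higher and 3 lower than IM of the tissue, where 16.8% of all genes were higher and 18.3% lower, so the share of members called was below that of all genes in both directions. Ndufa4 had 5.30, 5.79 and 4.63 UMIs per 10000 in AM and 1.43, 3.08 and 2.49 in IM, without overlap, and was higher by 1.08 ± 0.20 on the log2 scale (edgeR quasi-likelihood test, adjusted p = 3.9e-05). Atp5g3 had 3.83, 5.75 and 5.88 against 1.91, 3.63 and 2.93 and was higher by 0.80 ± 0.20 on the log2 scale (edgeR, adjusted p = 0.00195). Each pool of AM lay above every pool of IM for both genes. Uqcrc1 went the other way with 0.866, 1.14 and 1.14 in AM and 1.67, 1.62 and 1.71 in IM, a log2 fold change of −0.71 ± 0.16 (edgeR, adjusted p = 0.00068). Ndufc2 (−0.60 ± 0.14) and Ndufaf7 (−0.88 ± 0.32) were lower too, and Uqcrfs1 was higher by 0.42 ± 0.16 on the log2 scale. Without the control pool, whose IM were 44 cells, 11 members were higher and 8 lower, without the asthma pool 2 and 2, and without the tolerance pool 1 and 1.

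Around the chain, AM had higher Pparg (2.81 ± 0.24) and Ppargc1b (1.13 ± 0.27), regulators of lipid and mitochondrial genes, among 3 higher of 8 regulators. Cox6b2 was higher by 3.30 on the log2 scale, Ogdh by 0.99, and Fh1 (−1.23) and Sdhb (−0.74) were lower. The citric acid cycle had 2 genes higher and 1 lower of 12, the nuclear complex IV genes 1 higher of 12, complex II 1 lower of 4 and the carriers 1 lower of 9. Over all genes 16.8% were higher and 18.3% lower. The counts of citric acid cycle, complex IV and carrier genes thus lay near or below these shares. No mitochondrially encoded gene passed in either direction.

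In cDC1 against cDC2, 3 of 65 members were lower and 0 higher, where 8.2% of all genes were lower and 7.72% higher. The fold changes of 58 members lay below zero, with a median of −0.19 against −0.02 over all genes. Uqcrc1 had 1.02, 1.22 and 1.39 UMIs per 10000 in cDC1 and 1.45, 2.07 and 2.16 in cDC2, and was lower, with a log2 fold change of −0.59 ± 0.17 (edgeR quasi-likelihood test, adjusted p = 0.0121), with cDC1 below cDC2 within each pool. Ndufb5 (−0.53 ± 0.15) was lower as well. The count was 9 without the control pool and 0 without the asthma pool or without the tolerance pool. In simulated counts for this comparison 10.1% of genes changed 1.5-fold were recovered, so differences of that size are mostly missed. Outside the set, Fh1 (−1.61) and Mdh2, the malate dehydrogenase (−1.54), were lower among 12 citric acid cycle genes, Cox6b2 (−2.24) among 12 nuclear complex IV genes and Sdha (−0.48) among 4 of complex II. Of 9 carriers 3 were higher, led by Atpif1 (0.82), and no regulator or mitochondrially encoded gene passed.

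**Figure D5:**
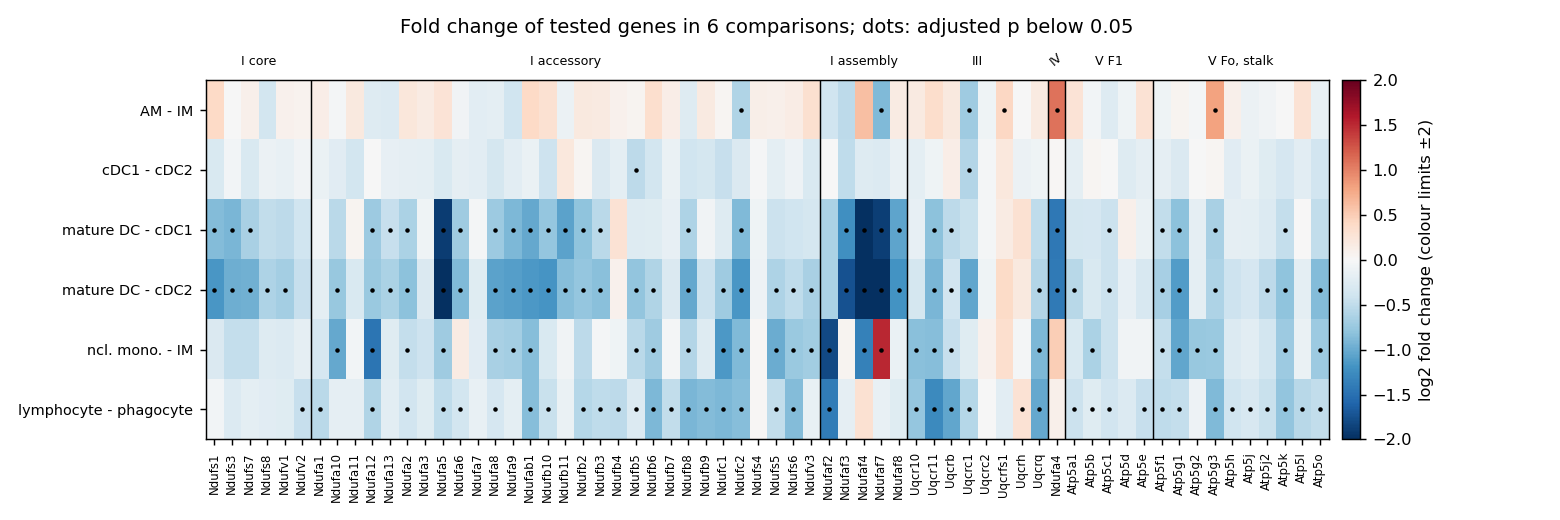
Colour map of log2 fold changes, red for higher and blue for lower in the first class named, with colours limited to values from −2 to 2. Columns are tested members ordered by complex, the 6 rows are the comparisons of classes, and a dot marks an adjusted p below 0.05. The row of mature DC against cDC2 is mostly blue, with a median of −0.64 over the 65 tested members, and that of AM against IM is near white in most, with a median of 0.09.

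Over the 6 comparisons of classes, Ndufc2, an accessory subunit of the membrane arm of complex I, was lower in 5. Atp5d, Ndufa3, Ndufa7, Ndufa11, Ndufs4 and Uqcrc2 were called in 0 of 6. Ndufs4, an accessory subunit whose loss is known to cause complex I deficiency, had 0.661 to 1.30 UMIs per 10000 in cDC1 and 0.716 to 0.955 in mature DC, and Uqcrc2 had 1.08 to 1.70 and 1.07 to 1.35, so the ranges of both genes overlapped.

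Cycling cells were compared with the other cells of the same class and pool, in AM, IM, cDC1 and cDC2, as 11 pairs with the edgeR quasi-likelihood test over 5839 genes. The test takes the 11 pairs as separate, although they came from only 3 pools and pairs of 1 pool share mice. Of 64 members 15 were lower and 2 higher in cycling cells, where 22.4% of all genes were lower and 14.5% higher. Their median log2 fold change was −0.08, and that of all genes −0.09. Ndufa1 (−0.44 ± 0.08, adjusted p = 8.34e-05) and Ndufa6 (−0.44 ± 0.08), Ndufa13 (−0.39), Ndufv3 (−0.33), Ndufa7 (−0.32) and Ndufaf4 (−0.56 ± 0.19) were lower, and so was Uqcrh (−0.31 ± 0.07). Ndufv1, which binds the flavin that takes electrons from NADH, was higher by 0.35 ± 0.11 on the log2 scale (edgeR, adjusted p = 0.0155), and Atp5g2 by 0.23 ± 0.06 (adjusted p = 0.00711). These counts turned on the scaling: without TMM 9 members were higher and 6 lower, with totals without ribosomal and mitochondrial genes 6 and 6, and the share of all calls that were higher moved from 39.3% to 62.4% and 58.8%. Of the other lists, 3 of 13 mitochondrially encoded genes were lower, 2 of 8 regulators were higher (Nrf1 0.76, Tfam 0.64) and 1 lower, and 3 carriers were higher and 2 lower of 9. The citric acid cycle had 1 gene higher and 3 lower of 13, the nuclear complex IV genes 1 higher and 2 lower, and complex II 1 lower.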

How the data were processed

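DC and macrophages of 3 pools of lungs were measured on 2 lanes. The authors deposited raw UMI counts per gene and cell, made with Cell Ranger 3.1.0 (STAR) on mm10, and separated the pools by hashtag with Seurat 3.1.5; these counts were used as deposited, and antibody counts only to check the pool labels. Reads matching several genes were not counted, and 3′ counts carry no length correction, so levels were not compared between genes. Barcodes were kept with at least 500 genes, at most 20000 UMIs and at most 20% of them mitochondrial, and because the Scrublet caller in scanpy 1.11.5 marked only 0.0585% and 0.121% of cells by its own threshold, the 2% with the highest doublet scores were removed per lane. A cell entered a class with at least 3 of 8 panel genes and at least 2 more than of any other panel. Classes with at least 10 cells in each of 3 pools gave 33 summed libraries of 11 classes, tested in edgeR 4.0.16 (R 4.3.3) with TMM, 20 residual degrees of freedom and SEs as the absolute log2 fold change over the square root of F. The cycling fit had 22 libraries. The pools are single and pool was a block, so p-values measure how far class differences varied over these 3 pools. The spread of a gene was estimated over all classes of the fit.

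The members and lists were chosen with earlier results of these data known. Genes were named by a rule: members of known role, the Ndufaf genes as a group, up to 6 members per comparison and direction with the largest fold among those past the threshold in the same direction in all 3 pools, up to 6 per class past the size rule, and the 2 largest folds per direction of other lists. Ndufc2 across comparisons and the members called in none were picked after their values were seen. DESeq2 1.42.0, other scalings, filters, gates, depth windows and leaving out each pool or lane were alternatives, and the test was tried on simulated data. In counts simulated for cDC1 against cDC2, the test recovered 10 of 99 genes changed 1.5-fold and 58 of 100 changed 2-fold. It called 0.0137% of unchanged genes. A member that was not called can therefore still differ by such folds. Coordinates of genes are from GENCODE M21. Single values of some genes that entered the counts are not reported here.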

Additional observations from a re-analysis of the deposited data

How the results depend on the processing

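Over 1065 recomputed values of 69 named calls, 912 kept their direction and call, 153 kept the direction without passing and 0 turned, and 25 calls passed under every alternative run. In AM against IM, members higher and lower, 3 and 3, were 5 higher at 2000 to 10000 UMIs per cell, 5 and 7 with DESeq2, 7 higher without TMM, 10 and 5 with only these classes in the fit, and 1 to 11 and 1 to 8 with a pool or lane left out. The 3 members lower in cDC1 than cDC2 were 5 in the depth window, 6 with DESeq2, 1 without the filter on low counts, 1 without the pool block, 6 with only these classes and 0 to 9 with a pool or lane left out. For mature DC against cDC1, 29 lower became 44 without TMM, 46 with totals without ribosomal and mitochondrial genes and 12 to 35 with a pool or lane left out, and 0 higher became 0 to 1. Against cDC2, 44 lower became 55 with DESeq2, 59 without TMM and 60 with totals without ribosomal and mitochondrial genes. With a pool or lane left out they became 20 to 49. The 0 higher became 1 in the depth window and 0 to 1 with a pool or lane left out. For nonclassical monocytes 28 lower became 39 with DESeq2. With a pool or lane left out, 28 lower became 8 to 36 and 1 higher 0 to 1. For lymphocytes 41 lower became 16 with the reduced totals, 45 with only these classes in the fit and 17 to 42 with a pool or lane left out. The 1 higher became 0 without the filter, 0 without the pool block, 2 with the reduced totals and 0 to 1 with a pool or lane left out. For cycling cells, 2 higher became 1 in the depth window, 1 without the filter, 9 without TMM and 6 with the reduced totals. The 15 lower became 6 without TMM, 1 without the pool block and 6 with the reduced totals. With a pool or lane left out, 2 higher became 0 to 2 and 15 lower became 3 to 13. The reduced totals gave levels of 214 in AM, 196 in IM, 188 in cDC1, 219 in cDC2, 124 in mature DC, 157 in nonclassical monocytes, 168 in B cells and 194 in T cells. All 10 module ratios stayed between 1.23 and 1.51: for asthma, IM had 1.30 with a stricter gate and 1.33 to 1.49 by lane, cDC1 1.26 in the depth window and 1.28 to 1.40 by lane, cDC2 1.51 without cycling cells and mature DC 1.30 without doublet removal and 1.28 in the depth window, and for tolerance, cDC1 had 1.26 in the depth window and cDC2 1.45 without cycling cells. At a ratio of at least 2, members past the size fell to 0 in AM (asthma and tolerance), 0 and 1 in cDC1, 1 and 1 in cDC2, 0 in nonclassical monocytes (tolerance) and 0 in B cells (asthma). The cause of these shifts was not tested. Pool was a block in the class comparisons, and each class and pool in the cycling comparison. Members with few UMIs, such as the assembly factors in mature DC, carry the widest errors.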

Other observations

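AA467197, a gene also known as Nmes1 whose protein is related to Ndufa4, is not among the 70 genes and was looked at after the values of Ndufa4 had been seen. Its level in UMIs per 10000 was 0.141 in control AM, 2.97 in asthma AM and 5.15 in tolerance AM. In IM it was 1.57, 10.1 and 7.19, and in cDC2 2.18, 8.79 and 6.80. Mature DC had 5.09, 11.6 and 11.2. Classical monocytes, 79 cells in all, had 0.0548, 13.8 and 12.1. With 1 pool per protocol these are values without a test between protocols. Between classes, mature DC had a log2 fold change of 1.56 ± 0.54 against cDC1 (edgeR quasi-likelihood test, adjusted p = 0.0204) and of 0.97 against cDC2 (adjusted p = 0.130). Ndufa4 itself was lower in mature DC in both comparisons.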
